A study of Mus musculus with 6 samples.

Results

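The genes of muscle excitation and calcium handling were followed in whole mouse skin as 10 genes chosen by symbol, Cacna1s, Cacng1, Ryr1, Jsrp1, Casq1, Casq2, Atp2a1, Atp2a2, Sln and Pvalb, of 23951 genes in the expression table. All 10 symbols were found, and all 10 passed the filter on low values, which asked for 0.1 FPKM or more in the mean of all 6 mice (FPKM, fragments per kilobase, is a level corrected for transcript length and library size). The mutant group, JunB dep, held 3 C57Bl/6 mice whose JunB was deleted where K5, a keratin of basal keratinocytes, is expressed, so that muscle and the other cells of the skin were not the target. The control group, JunB +/+, held 3 C57Bl/6 mice, and the mice of the study are described as littermates. Both groups were 6 to 7 months old, and the mutant skin was lesional. The sources used here do not give the body site of each skin piece. Libraries are named by the replicate number in the labels, 0, 1 or 2, which ranks nothing.

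Skeletal muscle turns an electrical signal into contraction at the triad, where a tubule of the surface membrane meets the calcium store, the sarcoplasmic reticulum. The voltage sensor, a calcium channel of the tubule, opens the ryanodine receptor of the store, calcium flows out to the filaments, and the SERCA pumps then carry it back, while calsequestrin holds it inside the store and parvalbumin binds it in the cytosol. Mouse skin carries a thin sheet of striated muscle, the panniculus carnosus, which lies below the fat and is made mostly of fast fibres.

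Ryr1, Cacna1s, Jsrp1, Casq1 and Atp2a1 fell in JunB dep skin, between 6.51-fold and 9.09-fold by mean FPKM. Cacng1 and Pvalb were also lower in all 3 JunB dep mice than in every control, without passing the test, and Casq2, Sln and Atp2a2 overlapped between the genotypes. The test was limma on log2(FPKM + 0.5) over the 17021 genes that passed the filter, with two-sided p adjusted by Benjamini and Hochberg's method and called under 0.05. It called 5 of the 10 genes, all lower, where 1.38% of all tested genes were called lower and 0% higher. At an unadjusted p under 0.05, 243 of all tested genes were higher and 1044 were lower. The groups did not overlap, with every JunB dep mouse lower, in 7 of the 10 genes, against 9.16% of all tested genes, and 0 of the 10 were higher in every JunB dep mouse, against 5.62%. The median log2 fold change of the 10 genes was -2.77, and that of all tested genes was 0.03.

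**Figure D1:**
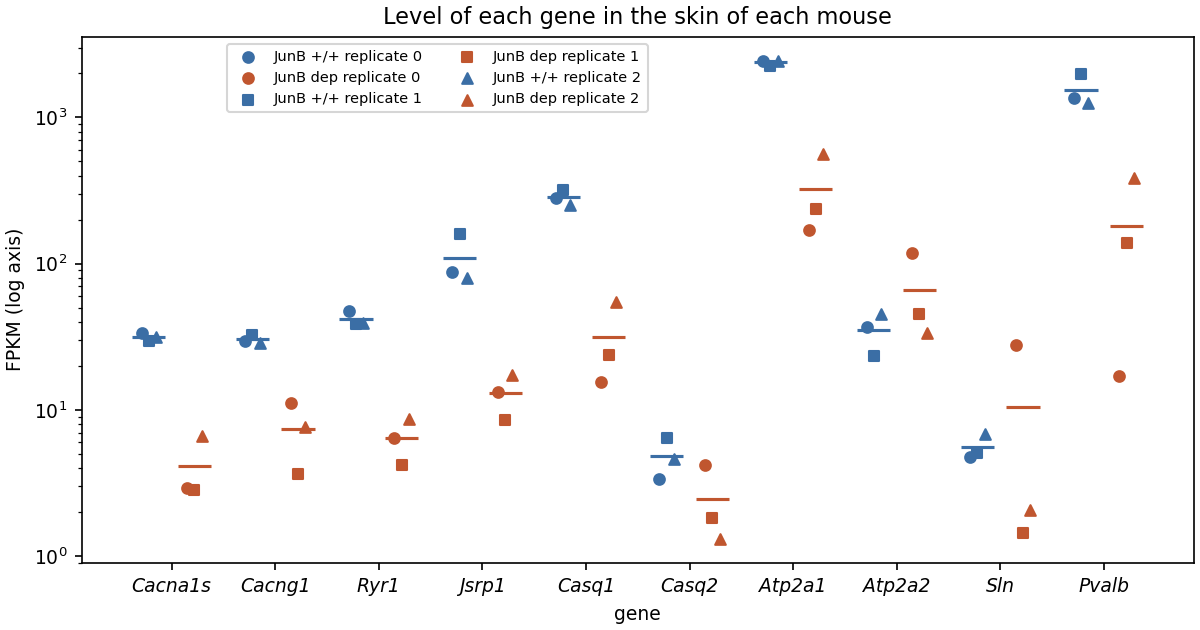
FPKM of each gene (log axis) in each of the 6 mice, 3 JunB +/+ mice in blue and 3 JunB dep mice in orange, with the replicate number as the symbol and the group mean as a line. Every JunB dep value of Atp2a1, the most abundant of the 10 genes, lay at or below 559 FPKM and every control value at or above 2252 FPKM, while Atp2a2, Casq2 and Sln overlapped.

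The whole set took up 0.782% to 0.862% of the summed FPKM of a control library and 0.0614% to 0.214% of a JunB dep library. In controls the 10 genes summed to 4310, 4851 and 4192 FPKM in replicates 0, 1 and 2. In JunB dep mice the sum was 387, 468 and 1074 FPKM, a mean 6.92-fold lower. Since whole skin was lysed, fewer muscle fibres and less RNA per fibre cannot be told apart in these values.

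The calls depended on single mice. Leaving out any 1 control mouse, JunB dep replicate 0 or JunB dep replicate 1 took the number of called members from 5 to 0, and leaving out JunB dep replicate 2 left 5. In these 6 fits 7 to 9 of the 10 genes were lower at an unadjusted p under 0.05, as 7 were with all mice. With all mice, 1044 of the 17021 tested genes were lower at that level. Without JunB dep replicate 0, the adjusted p was 0.0500101 for Ryr1, 0.0591 for Cacna1s, 0.0598 for Casq1, 0.0730 for Jsrp1 and 0.105 for Atp2a1 (limma). Over the 17 alternatives tried, the adjusted p from limma ranged from 0.0127 to 0.147 for Ryr1, from 0.00950 to 0.157 for Cacna1s and from 0.00950 to 0.176 for Casq1. Atp2a1 was the weakest of the 5, with a range from 0.0120 to 0.234 (limma) and a call in 7 of the 17. Its call was also lost with the libraries rescaled to an equal sum (adjusted p = 0.0564, limma), with quantile normalization (0.0901) and without the filter on low values (0.0802).

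The table sums to between 481078 and 630363 FPKM per mouse, and read numbers are unknown. Junb, the targeted gene (chromosome 8, 87500811 to 87502617), had 59.3, 72.4 and 56.9 FPKM in controls 0, 1 and 2, while the mice labelled JunB dep 0, 1 and 2 had 130, 42.8 and 28.0 FPKM (adjusted p = 0.901, limma). JunB dep replicates 1 and 2 lay below every control for this gene, and the library labelled JunB dep replicate 0 lay above every control. Its label is thus not borne out by Junb, and mutant is used here as labelled. This library also stood apart in other ways. It listed Krt14, a keratin of basal keratinocytes, at 0 FPKM beside Krt5 at 3725 FPKM, and 5 genes of mucosal epithelium (Krt4, Krt13, Krt76, Sprr3 and Pax9) summed to 3798 FPKM in it against 0.394 to 1.41 FPKM in the other 5. The fat cell genes Adipoq, Plin1, Cidec, Lep and Fabp4 summed to 59.0 FPKM in it and to between 1210 and 8949 FPKM elsewhere. Control replicate 0 held 5 liver transcripts at a sum of 1428 FPKM, against at most 21.0 FPKM in the other mice. The members are therefore given mouse by mouse below.

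The voltage sensor of the triad is the dihydropyridine receptor, of which Cacna1s is the pore (chromosome 1, 137949327 to 138016399). Control replicates 0, 1 and 2 had 33.6, 29.8 and 31.7 FPKM of it, whereas JunB dep replicates 0, 1 and 2 had 2.94, 2.83 and 6.65 FPKM. The control mice lay within a narrow band, and all 3 JunB dep mice were far below it. The mean was 31.7 ± 1.94 FPKM in controls and 4.14 ± 2.17 FPKM in JunB dep mice (SD, n = 3 each), and Cacna1s fell by 2.89 on the log2 scale (standard error 0.33, adjusted p = 0.0214, limma).

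Cacng1 is the gamma subunit of the same receptor (chromosome 11, 107564532 to 107577836). Its level was 29.6, 32.8 and 28.7 FPKM in the controls and 11.1, 3.62 and 7.64 FPKM in JunB dep replicates 0, 1 and 2. The groups did not overlap, but JunB dep replicate 0 was the highest mutant here, whereas replicate 2 was the highest for Cacna1s. On the log2 scale the difference was -2.08 (standard error 0.38, adjusted p = 0.0850, limma). With the libraries rescaled to an equal sum, the adjusted p was 0.0485, the single alternative of 17 in which Cacng1 was called, and the range over the 17 was 0.0485 to 0.370. There were 0.880, 1.10 and 0.904 FPKM of Cacng1 per FPKM of Cacna1s in controls, and 3.78, 1.28 and 1.15 in JunB dep mice. The ratio was higher in 3 of 3 mutants than in every control (exact two-sided permutation test p = 0.1, the smallest that 3 mice against 3 allow), and its excess was largest in replicate 0.

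Ryr1, the calcium release channel of the store, is a gene of up to 106 exons (chromosome 7, 29788359 to 29910170). Controls 0, 1 and 2 measured 47.6, 38.8 and 39.6 FPKM, and JunB dep mice 0, 1 and 2 measured 6.41, 4.23 and 8.72 FPKM. The highest mutant stayed far below the lowest control. The means were 42.0 ± 4.89 and 6.45 ± 2.25 FPKM (SD, n = 3 each), and the gene fell by 2.66 on the log2 scale (standard error 0.27, adjusted p = 0.0187, limma), with a 95% interval of -3.32 to -1.99. Its annotation overlaps a long non-coding RNA on the other strand and a microRNA on the same strand, and the sources used here do not say if the authors' counting used the strand.

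The pore was next set against the release channel. Per FPKM of Ryr1 there were 0.706, 0.767 and 0.801 FPKM of Cacna1s in the controls and 0.459, 0.668 and 0.762 FPKM in JunB dep replicates 0, 1 and 2. JunB dep replicates 0 and 1 lay below every control, and replicate 2 lay within the control range. The mean was 0.758 ± 0.0479 in controls and 0.630 ± 0.155 in JunB dep mice (SD, n = 3 each, exact two-sided permutation test p = 0.2, where 0.1 is the smallest possible), so a change in the ratio was neither shown nor excluded by so few mice. Both levels are per length, so the ratio compares the levels of the transcripts.

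Jsrp1, a protein of the junctional reticulum membrane that binds the voltage sensor and calsequestrin (chromosome 10, 80271246 to 80276240), reached 87.3, 160 and 80.3 FPKM in the controls but 13.2, 8.58 and 17.4 FPKM in the mutants. Control replicate 1 stood above the other controls, and every mutant was below every control. The gene fell by 3.00 on the log2 scale (standard error 0.36, adjusted p = 0.0236, limma). In JunB dep mice there were 2.06, 2.03 and 1.99 FPKM of Jsrp1 per FPKM of Ryr1, within the control values of 1.83, 4.14 and 2.03.

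Casq1 and Casq2 encode the calsequestrins, which bind calcium inside the reticulum. Casq1 is found in fast fibres, and Casq2 in slow fibres and heart. The data used here do not show that either is limited to these cells. Casq1 (chromosome 1, 174140025 to 174150026) had 282, 320 and 251 FPKM in controls 0, 1 and 2, which compares with 15.4, 23.6 and 54.7 FPKM for JunB dep mice 0, 1 and 2. JunB dep replicate 0 was the lowest and replicate 2 the highest mutant, as for Atp2a1 and Pvalb. Casq1 fell by 3.35 on the log2 scale (standard error 0.45, adjusted p = 0.0308, limma), and the mean was 9.09-fold lower. A processed transcript, Gm17224, is annotated on the other strand within Casq1, with the same limit on strand as for Ryr1.

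Casq2 (chromosome 3, 101890338 to 101950437) was low in all mice, at 3.37, 6.46 and 4.63 FPKM in the controls and 4.21, 1.81 and 1.31 FPKM in JunB dep replicates 0, 1 and 2. Replicates 1 and 2 were below every control, and replicate 0 lay within the control range. Casq2 had a log2 difference of -0.94 between the means (standard error 0.43, adjusted p = 0.705, limma), with a 95% interval of -1.98 to 0.11. Without JunB dep replicate 0 it was -1.34 (adjusted p = 0.259, limma).

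Atp2a1, the SERCA1 pump of fast fibres (chromosome 7, 133589372 to 133606622), was the most abundant of the 10 genes in both groups. It stood at 2429, 2252 and 2445 FPKM in control replicates 0, 1 and 2, which made it the 11th, 24th and 15th highest gene of those libraries. In JunB dep replicates 0, 1 and 2 it was at 170, 238 and 559 FPKM, at ranks 498, 259 and 137. The controls lay close together, and the mutants were spread more widely in proportion, with every mutant below every control. Atp2a1 fell by 3.07 on the log2 scale (standard error 0.46, adjusted p = 0.0426, limma). The gene Rabep2 is annotated across part of it on the other strand.

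Atp2a2 encodes SERCA2 (chromosome 5, 122903531 to 122952183), the pump of slow fibres and heart and, in another splice form, of most other cells, keratinocytes included. Its levels were 36.9, 23.4 and 45.1 FPKM in the controls and 119, 45.5 and 33.4 FPKM in JunB dep replicates 0, 1 and 2. Replicates 1 and 2 lay at the edge of or within the control range, and replicate 0 was above all. Atp2a2 differed by 0.73 on the log2 scale (standard error 0.51, adjusted p = 0.722, limma), 0.20 without JunB dep replicate 0. Gene-level values do not separate the splice forms.

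Sln, sarcolipin, is a small membrane protein that binds SERCA and lowers its calcium transport (chromosome 9, 53698058 to 53701651). Control replicates 0, 1 and 2 had 4.78, 5.05 and 6.79 FPKM. JunB dep replicates 1 and 2 were lower than every control, at 1.43 and 2.07 FPKM, and replicate 0 was higher than every control, at 27.9 FPKM. Over all mice Sln differed by -0.20 on the log2 scale (standard error 1.02, adjusted p = 0.953, limma), and without JunB dep replicate 0 it was -1.42 (adjusted p = 0.124, limma). In the same library Myl7, a myosin light chain of the heart atrium, was at 3.75 FPKM against 0.0358 to 0.156 FPKM in the other 5, while the heart genes Myh6 and Nppa were at 0 and 0.135 FPKM there and at most 0.0159 and 0.494 FPKM elsewhere. The part of the mucosal, fat and heart transcripts of this library in the Sln value was not tested.

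Pvalb, parvalbumin (chromosome 15, 78021544 to 78036830), binds calcium in the cytosol of fast fibres. At 1356, 1983 and 1259 FPKM in control replicates 0, 1 and 2, it was the next most abundant gene after Atp2a1. The mutants had 16.9, 139 and 384 FPKM. All 3 were below every control, and replicate 0 was far below the other mutants. Pvalb had the most negative log2 fold change of the 10 genes, -3.94, but also the largest standard error, 1.09, and did not pass (adjusted p = 0.306, limma). Without JunB dep replicate 0 the fold change was -2.70 (adjusted p = 0.158, limma), and Pvalb no longer had the most negative value, since Jsrp1 at -3.04, Casq1 at -2.96, Cacna1s at -2.72 and Atp2a1, which differed from it in the next decimal, were below it.

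**Figure D2:**
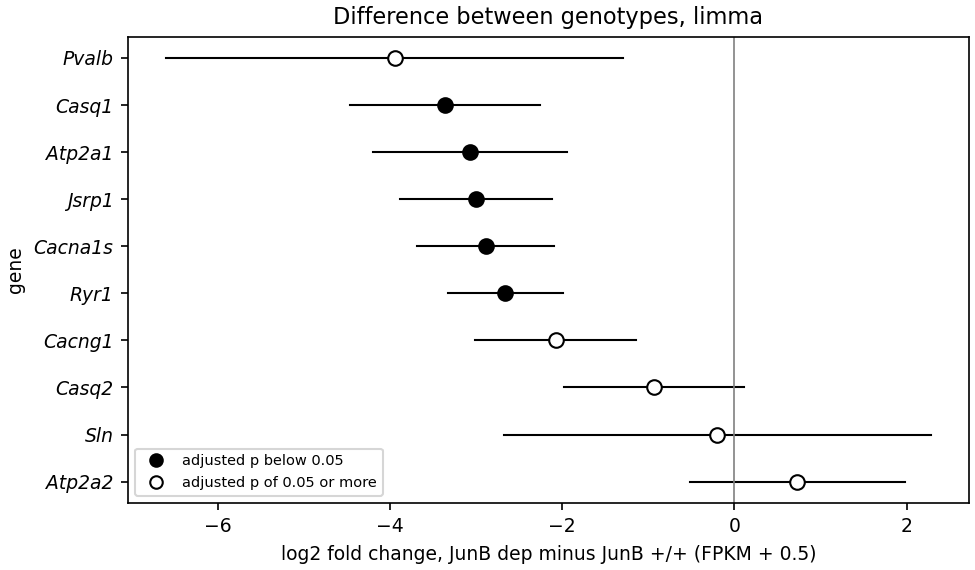
Log2 fold change of each gene on the log2(FPKM + 0.5) scale, JunB dep minus JunB +/+ (points), with the 95% interval from limma (lines) over 3 mice per genotype; filled points have an adjusted p below 0.05. The 5 filled genes lie between -3.35 and -2.66, and the intervals of Casq2, Sln and Atp2a2 include 0.

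In the controls the order of the levels was Atp2a1, Pvalb, Casq1, Jsrp1, Ryr1, Atp2a2, Cacna1s, Cacng1, Sln and Casq2. All 3 mice of one gene lay above all 3 of the next at the steps from Atp2a1 to Pvalb, Pvalb to Casq1, Casq1 to Jsrp1, Jsrp1 to Ryr1 and Cacng1 to Sln. Neighbours at the other 4 steps overlapped. In JunB dep mice Atp2a2 stood in position 3 and Sln in position 6 by mean level, and no gene of the order had all 3 mice above those of the next.

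Sequence before the start of the genes was looked at because several members moved together. RefSeq promoter windows on GRCm38.p6 matched 6 of the 10 genes, with 7 windows in all because Pvalb has a pair of them, and none was given for Atp2a2, Sln, Jsrp1 and Cacng1. The 250 bases before each start were searched on both strands for the letters CAGCTG, for the wider CANNTG that contains it, for the MEF2 site and the CArG box by their usual consensus, and for the AP-1 letters TGANTCA. The letters CAGCTG, an E-box form bound by myogenic factors, was in the windows of Atp2a1, Casq1 and Cacna1s, and in 13% of the 32851 windows of all genes. The MEF2 site was in those of Casq2 and of 1 Pvalb window, and in 2.92% of all. CANNTG was in 5 of the 7 windows and in 66.2% of all. The CArG box and TGANTCA were in 0 of the 7 windows and in 1.47% and 6.75% of all. A match of letters is a description and not a binding site. The windows of the calsequestrin pair, of Atp2a1 and of Cacna1s are printed 5′ to 3′ to set 3 genes that fell beside Casq2, which did not pass the test. Capitals mark CAGCTG, or in Casq2 the MEF2 site.
Atp2a1 promoter, chr7:126463074-126463323, - strand: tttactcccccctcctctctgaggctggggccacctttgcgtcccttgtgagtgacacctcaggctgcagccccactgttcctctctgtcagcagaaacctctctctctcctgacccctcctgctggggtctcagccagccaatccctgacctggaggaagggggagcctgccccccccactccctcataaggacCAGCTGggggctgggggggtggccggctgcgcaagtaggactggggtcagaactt
Casq1 promoter, chr1:172219896-172220145, - strand: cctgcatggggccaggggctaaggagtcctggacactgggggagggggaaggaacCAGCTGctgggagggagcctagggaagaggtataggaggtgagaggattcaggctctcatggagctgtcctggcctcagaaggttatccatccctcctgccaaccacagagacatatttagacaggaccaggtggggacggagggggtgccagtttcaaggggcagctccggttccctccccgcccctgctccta
Cacna1s promoter, chr1:136052561-136052810, + strand: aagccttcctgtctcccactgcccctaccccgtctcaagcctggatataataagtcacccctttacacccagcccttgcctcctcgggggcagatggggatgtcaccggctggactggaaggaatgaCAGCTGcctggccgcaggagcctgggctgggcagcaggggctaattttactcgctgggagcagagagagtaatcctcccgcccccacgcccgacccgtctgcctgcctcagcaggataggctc
Casq2 promoter, chr3:102086165-102086414, + strand: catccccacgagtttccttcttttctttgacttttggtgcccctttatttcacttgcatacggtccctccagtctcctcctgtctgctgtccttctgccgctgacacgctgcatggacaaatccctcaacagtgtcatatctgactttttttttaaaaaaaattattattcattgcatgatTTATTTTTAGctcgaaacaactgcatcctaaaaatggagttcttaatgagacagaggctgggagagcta

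The E-box letters begin 55 bases before the start in Atp2a1, 195 in Casq1 and 123 in Cacna1s, and the MEF2 site 69 bases before it in Casq2. The Ryr1 window, whose gene fell as those 3 did, held neither.

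The makeup of the pump and calsequestrin transcripts was compared next, since their forms are encoded by different genes. The shares were not tested as a measure of fibre type. Atp2a1 made up 98.2%, 98.6% and 98.0% of the FPKM of the 3 SERCA genes in control replicates 0, 1 and 2. In JunB dep replicates 0, 1 and 2 its share was 58.3%, 82.9% and 93.2%, below every control. Atp2a2 accounted for 1.02% to 1.81% in controls and for 40.8%, 15.9% and 5.57% in the mutants. Most other cells also make Atp2a2, so these shares are not those of muscle fibres alone. Casq1 was 98.8%, 98.0% and 98.2% of the calsequestrin FPKM in controls and 78.6%, 92.9% and 97.7% in the mutants.

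On the log2 scale, the level of Atp2a1 exceeded that of Atp2a2 by 6.02, 6.56 and 5.74 in control replicates 0, 1 and 2 and by 0.51, 2.37 and 4.05 in JunB dep replicates 0, 1 and 2. The change in this difference was -3.80 (standard error 1.05, lower in 3 of 3 mutants, exact two-sided permutation test p = 0.1, the smallest possible). For Casq1 against Casq2 it was -2.42 (standard error 0.94), and for Pvalb against Sln -3.74 (standard error 2.50), each with every mutant below every control and the same p of 0.1 by the exact permutation test. Pvalb exceeded Sln by 8.01, 8.48 and 7.43 in the controls and by -0.70, 6.17 and 7.23 in JunB dep replicates 0, 1 and 2, so that replicate 0 was the farthest from the controls. Without that mouse the change for Pvalb against Sln was -1.28, for Casq1 against Casq2 -1.62 and for Atp2a1 against Atp2a2 -2.90. In all 3 pairs JunB dep replicate 0 had the smallest difference and replicate 2 the largest of the mutants.

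**Figure D3:**
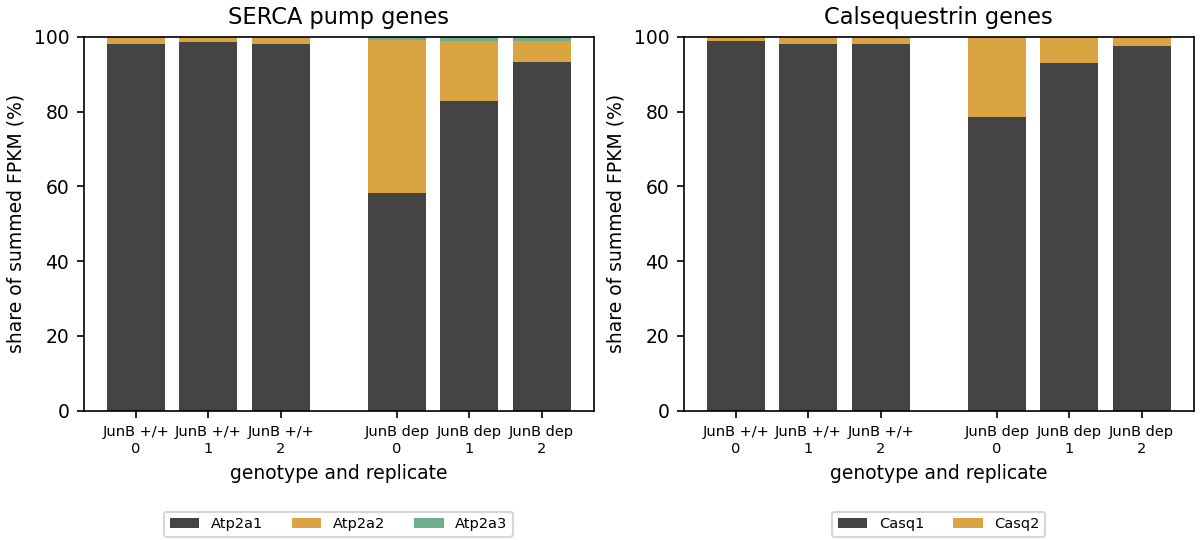
Share of summed FPKM (%) of Atp2a1, Atp2a2 and Atp2a3 (left) and of Casq1 and Casq2 (right) in each of the 6 mice. Atp2a1 was 98.0% to 98.6% in JunB +/+ mice and 58.3% to 93.2% in JunB dep mice, and Casq1 was 98.0% to 98.8% and 78.6% to 97.7%.

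Markers of the muscle fibre itself moved with the members. Of 20 listed genes of the sarcomere and fibre (such as Acta1, Ckm, Tnnt3 and Ttn), 14 fell by limma and 0 rose. Of all tested genes 1.38% were called lower. In 17 of the 20 every JunB dep mouse was below every control, against 9.16% of all tested genes. The median log2 fold change of the 20 genes was -2.86. As for the members, these calls depended on single mice, with 5 markers called without JunB dep replicate 0, 15 without JunB dep replicate 2 and 0 without any other mouse. Their FPKM summed to between 21013 and 30005 in controls and to between 1945 and 4609 in JunB dep mice. Against the control mean, the median of the list was -2.76, -3.48 and -2.26 in JunB dep replicates 0, 1 and 2, and that of the 10 members was -2.77, -3.22 and -2.03. Of 9 genes of fast fibres, of which several are also on the first list, 6 fell, and all 9 were without overlap. Of 6 tested genes of slow fibres 0 were called by limma and 1 had an unadjusted p under 0.05. That gene was Myl2, with a log2 fold change of -3.70 (adjusted p = 0.146, limma). All 6 were lower in the mean, with a median of -1.05, and 2 were lower in every mutant than in every control. Slow fibre genes thus also tended lower. Their sum was 15.6, 7.91 and 2.64 FPKM in JunB dep replicates 0, 1 and 2. The slow fibre list summed to only 9.60 to 72.0 FPKM in controls, and its defining gene Myh7, the slow myosin, lay between 0.0699 and 2.11 FPKM in controls and was listed at 0, 0 and 0.00789 FPKM in the mutants. In both groups the summed level of the fast fibre genes was thus far above that of the slow ones, at 1084 to 2705 FPKM in the mutants. Among markers of other cells, 7 smooth muscle, 7 keratinocyte, 6 fibroblast, 4 endothelial, 5 nerve, 5 leukocyte and 5 fat cell genes were tested. By limma 0 were called, and 1, a smooth muscle gene, had an unadjusted p under 0.05. As 1.38% of all tested genes were called lower, 0 calls do not set these lists apart. The median log2 fold change was -1.93 for fat cell, -0.70 for fibroblast, -0.61 for nerve and -0.45 for smooth muscle genes. Every gene of these lists and of the endothelial one (-0.16) was lower in the mean. For leukocyte and keratinocyte genes the median was -0.07 and 0.06. Lep (fat) and Lmod1 (smooth muscle) did not overlap, with the mutants lower. The fat cell sums of JunB dep mice spanned 59.0 to 8949 FPKM.

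Each member was then set against the mean log2 level of the 20 markers in the same mouse. The marker mean was 7.46, 8.02 and 7.44 in control replicates 0, 1 and 2 and 5.08, 4.58 and 5.37 in JunB dep replicates 0, 1 and 2. Relative to it, Ryr1 changed by -0.03 (standard error 0.26), Cacna1s by -0.26 (0.32), Atp2a1 by -0.44 (0.48), Casq1 by -0.73 (0.46) and Pvalb by -1.32 (1.29), and for all 5 the groups overlapped. Jsrp1 was lower in every mutant than in every control, by 0.38 in the mean. Cacng1 was higher in every mutant, by 0.55, and so were Casq2 by 1.69, Sln by 2.42 and Atp2a2 by 3.36. For these 5 the exact two-sided permutation test gave p = 0.1, the smallest possible, and p = 0.2 after Benjamini-Hochberg adjustment over the 10 genes. The sizes leaned on JunB dep replicate 0. Without it the change was 0.25 for Cacng1, 1.32 for Casq2, 1.24 for Sln and 2.86 for Atp2a2, and it was -0.02 for Ryr1, -0.06 for Cacna1s, -0.04 for Atp2a1, -0.30 for Casq1, -0.37 for Jsrp1 and -0.04 for Pvalb. The 20 markers include the slow troponin genes Tnnt1, Tnni1 and Tnnc1, whose log2 fold changes were -0.81, -0.14 and -1.05, and the choice of markers mattered. Against the 9 fast fibre genes, a reference chosen after the data were seen, Jsrp1 overlapped between the groups at 0.10 (standard error 0.33), and Ryr1 at 0.44, Cacna1s at 0.21 and Atp2a1 at 0.03 turned from negative to positive, each with overlap. Casq1 stayed at -0.26 and Pvalb at -0.85, with overlap, while Cacng1 at 1.02, Casq2 at 2.16, Sln at 2.90 and Atp2a2 at 3.83 were again higher in every mutant than in every control (exact two-sided permutation test p = 0.1, adjusted 0.25). Without JunB dep replicate 0 these 4 were at 0.47, 1.54, 1.45 and 3.08, and Jsrp1 at -0.16 and Pvalb at 0.18 changed sign. Pvalb relative to the markers was at 2.95, 2.94 and 2.86 in controls, at 2.54 and 3.21 in JunB dep replicates 1 and 2, and at -0.96 in replicate 0.

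**Figure D4:**
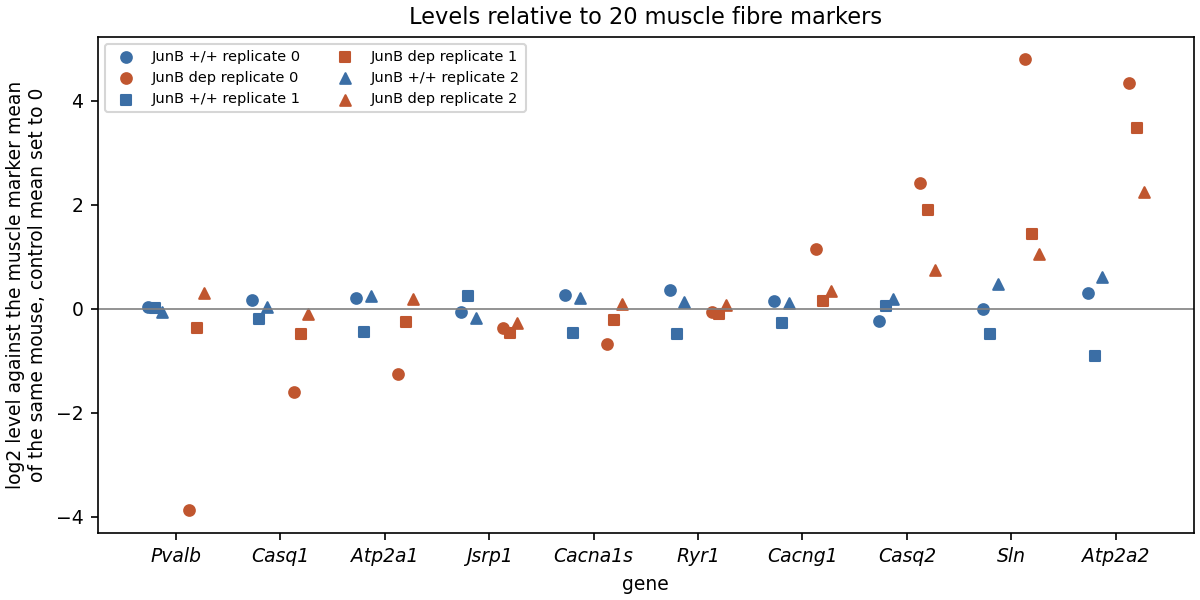
Log2(FPKM + 0.5) of each gene minus the mean of 20 muscle fibre markers of the same mouse, shifted so that the mean of the 3 JunB +/+ mice (blue) is 0; JunB dep mice are orange and symbols give the replicate number. Ryr1 and Cacna1s overlap between genotypes, Atp2a2, Sln and Casq2 lie above the controls in all 3 JunB dep mice, and Pvalb of JunB dep replicate 0 lies far below.

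The other genes of excitation and contraction coupling were taken from a list of 49 written by function, of which 48 were in the table and 44 were tested. Of these, 19 fell by limma and 0 rose, where 1.38% of all tested genes were called lower. In 29 the groups did not overlap with the mutants lower, against 9.16% of all tested genes. The median log2 fold change of the 44 genes was -1.42. Without JunB dep replicate 0 the number called was 11, without JunB dep replicate 2 it was 18, and without any other single mouse it was 0.

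At the neuromuscular junction and surface membrane, 5 of 16 tested genes fell. Among them were Chrne, the adult subunit of the acetylcholine receptor, Rapsn, which clusters that receptor, the muscle sodium channel gene Scn4a, and Kcnj11, a potassium channel. Scn4a ranged from 9.71 to 15.3 FPKM over the controls and from 1.04 to 2.43 FPKM over the mutants, and fell by 2.65 on the log2 scale (standard error 0.32, adjusted p = 0.0222, limma). Chrna1, the alpha subunit of the receptor, had 1.12, 0.831 and 1.07 FPKM in the 3 controls, against 2.55, 0.196 and 0.260 FPKM in the mutants. As with Sln, JunB dep replicate 0 was above every control for it and the other 2 mutants below (adjusted p = 0.835, limma). Clcn1, the muscle chloride channel, was just short of the threshold, with a log2 fold change of -2.54 (adjusted p = 0.0545, limma).

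At the triad, 10 of 15 tested genes fell. These were the voltage sensor subunits Cacnb1, Cacna2d1 and Cacng6, the coupling adaptor Stac3, the junctophilins Jph1 and Jph2 that tether tubule to store, Bin1 and Cav3 of the tubule membrane, Sypl2, and Trdn, which anchors calsequestrin at the release channel. Stac3 measured 39.3, 47.5 and 36.7 FPKM in the controls but 3.91, 4.97 and 8.23 FPKM in the mutants, and it fell by 2.80 on the log2 scale (standard error 0.29, adjusted p = 0.0187, limma). Fkbp1a, a ryanodine receptor partner that other cells also make, ranged from 90.4 to 121 FPKM over the controls and from 93.3 to 132 FPKM over the mutants. Ryr2 and Ryr3, the release channels of heart and of other tissues, did not exceed 0.0604 FPKM in any mouse and were not tested.

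In the calcium store and its uptake routes, 4 of 13 tested genes fell, namely Hrc, a calcium-binding protein of the store, Srl, Tmem38a, a potassium channel of the muscle store, and 2310015B20Rik, the older symbol of the SERCA inhibitor myoregulin. Hrc measured 107, 123 and 109 FPKM in the controls but 9.39, 10.1 and 19.2 FPKM in the mutants, and fell by 3.15 on the log2 scale (standard error 0.29, adjusted p = 0.0179, limma). For Tmem38a the controls gave 154, 155 and 168 FPKM, the mutants 19.1, 17.5 and 33.2 FPKM. Its relative Tmem38b, of non-muscle cells as well, ranged from 14.1 to 16.4 FPKM over the controls, with 45.6, 6.54 and 7.99 FPKM in the mutants (adjusted p = 0.935, limma), with replicate 0 again alone on the other side of the controls. The store protein Calr and the store-operated entry genes Stim1 and Orai1 were not called, with log2 fold changes of 0.26, -0.67 and -0.38.

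**Figure D5:**
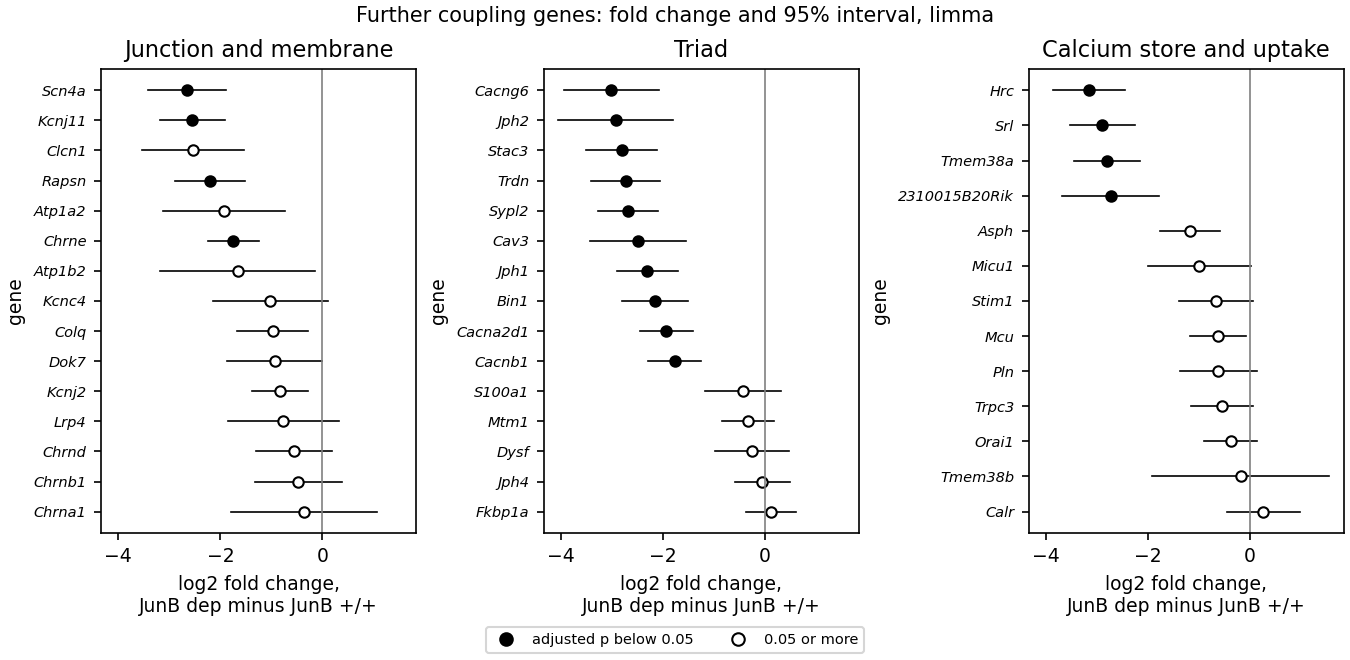
Log2 fold change, JunB dep minus JunB +/+ (points, 3 mice per genotype), with 95% intervals from limma, for genes tested at the neuromuscular junction and membrane (15 of the 16), triad (15) and calcium store and uptake (13); filled points have an adjusted p below 0.05. Filled genes number 4, 10 and 4, and each lies below 0.

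Calcium genes that most cells use did not follow. Of 13 tested genes of the list with the plasma membrane pumps, the IP3 receptors, calmodulins and chaperones, 0 were called by limma and 0 had an unadjusted p under 0.05. Of all tested genes 1.38% were called lower, so 0 calls among 13 do not set the list apart. The median log2 fold change was -0.26, against -2.77 for the members. It was negative in 8 of the 13 genes. Calm3 and Slc8a1, 2 of the 13, were lower in every JunB dep mouse, against 9.16% of all tested genes. The summed FPKM of this list was 888 to 999 in controls and 840 to 914 in JunB dep mice. Atp2c1, the calcium pump of the Golgi, measured 12.8, 11.4 and 13.9 FPKM in the controls, against 22.1, 14.1 and 12.2 FPKM for JunB dep mice 0, 1 and 2. Replicate 0 was the highest mouse for it, as for Atp2a2.

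The genes with the nearest pattern over the 6 mice were found by the root mean square distance between log2 levels, each centred on its control mean. Among those of Ryr1 were Sypl2 (distance 0.0956), Smyd1, Ttn, titin (0.133), and Rragd (0.134). For Casq1 they were Ckm (0.138), Tnnt3 (0.162), Dhrs7c (0.174), A930016O22Rik (0.190) and Myh4, the fastest myosin (0.209). For Casq2 they were Kcnc4 (0.140), Gm10012 (0.229), Atp5g1 (0.244), Prkcq (0.258) and Phtf2 (0.259). Those of Atp2a2 were Kcnk6 (0.0693), Strn (0.0837), Ttc37 (0.0931), 1700071M16Rik (0.113) and Cmah (0.122). Among the members, the closest pair was Atp2a1 and Cacna1s (0.239), followed by Atp2a1 and Casq1 (0.247) and Ryr1 and Cacna1s (0.259).

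The numbers in the sample titles fall into a lower and a higher series, which the labels do not explain. The lower series holds JunB dep replicate 0 with control replicates 0 and 1, and the higher one JunB dep replicates 1 and 2 with control replicate 2. Within them the log2 difference of Ryr1 was -2.65 and -2.60, of Cacna1s -3.22 and -2.72, of Jsrp1 -3.12 and -2.66, of Casq1 -4.24 and -2.79, of Atp2a1 -3.78 and -2.74, of Cacng1 -1.45 and -2.33 and of Pvalb -6.56 and -2.45. For Atp2a2 it was 2.00 and -0.21, for Casq2 -0.14 and -1.32 and for Sln 2.39 and -1.71, so that Atp2a2 and Sln differed in sign between the series. With the series as a block in the limma fit, 0 of the 10 members were called, and the adjusted p of the 5 genes was 0.0661 for Ryr1 and Cacna1s, 0.0728 for Casq1 and Jsrp1 and 0.0805 for Atp2a1. The lower series has 1 mutant only, the library that stood apart, so series and library cannot be told apart here.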

How the data were processed

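Poly(A) RNA of whole skin from 3 JunB dep and 3 JunB +/+ mice was sequenced with a strand-marking kit. Per the paper's methods, the authors aligned reads to mm9 with TopHat 2.0.10, Bowtie 1.0.0 and SAMtools 0.1.19 in the nextpresso pipeline, with iGenomes annotation. The submitters' processing notes also name FastQC and Cufflinks. The authors deposited 1 FPKM value for each gene in each library. The sources used here do not give the tool that made them or any further scaling. Read counts are not analysed here, so depth is unknown and no counting error is given.

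Deposited FPKM was filtered at a mean of 0.1 over the mice and put on a log2(FPKM + 0.5) scale. Genotypes were tested across all genes by limma (3.58.1, under R 4.3.3), using its trend option without any block. This scale understates changes of low genes. Each library is taken as 1 mouse. Ratios and differences between genes used exact two-sided permutation tests over mice, which cannot give a p below 0.1. Positions are from GENCODE vM1 on mm9, and promoters from RefSeq on GRCm38.p6. Python 3.11.15, pandas 2.3.3, scipy 1.17.1 and matplotlib 3.10.9 were used.

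The members and lists were chosen with earlier results of these data known. The genes named are the 10 members, Junb, list members and the 5 genes nearest in pattern to 4 of the members; some results are not reported here. The script was first tested on simulated data. Alternatives were a pseudocount of 0.1 or 1, dropping the filter or raising it to 1 FPKM, 3 rescalings, limma without trend or robust, blocks on the replicate number and on the title series, each mouse left out and a threshold of 0.1. Fast fibre markers as the reference were added after the data were seen.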

Additional observations from a re-analysis of the deposited data

How the results depend on the processing

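With all 6 mice, the number of called members was 3 without the filter on low values and 0 with the replicate block or the number series block. It ranged from 0 to 5 when 1 mouse was left out. All tested genes called went from 235 to 0 under both blocks, and to between 0 and 251 with 1 mouse left out. Without JunB dep replicate 0, 11 genes were called higher and 120 lower, where 0 were called higher with all mice. Further coupling genes called went from 19 to 0 under both blocks and to between 0 and 18. Muscle fibre markers called went from 14 to 8 without the filter, to 0 under both blocks and to between 0 and 15. Where these counts were 0 for the members, 7 to 9 of the 10 had an unadjusted p under 0.05 and a lower level. In the comparison reported 7 of the 10 did, and 1044 of all 17021 tested genes. The cause of the lost calls was not tested. Same-numbered mice correlated at 0.12, -0.23 and -0.43 in their deviations from the group means, so the replicate numbers do not pair the mice. The log2 fold change of Sln turned positive with the number series block (0.34), without JunB dep replicate 1 (0.51) and without JunB dep replicate 2 (0.31), and ranged from -1.42 to 0.51 with 1 mouse left out, with an adjusted p from limma of 0.124 to 0.991 over all 17 alternatives. The median of the 10 levels relative to the muscle markers was taken in each mouse, and its mean was 0.72 higher in JunB dep mice, or 1.19 higher relative to the fast fibre markers. With 1 mouse left out the 0.72 ranged from 0.45, without JunB +/+ replicate 1, to 0.86. This is a median of levels and not of changes, since 6 of the 10 members had a negative change relative to the muscle markers. The other 9 members kept the sign of their fold change in each of the 17 alternatives, and so did the 3 differences between paired forms wherever they were recomputed, though that of Pvalb against Sln ranged from -5.24 to -1.28 with 1 mouse left out. The unknown read number and 3 mice per genotype limit precision.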
